A study of Mus musculus with 8 samples.

Results

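The genes described here encode 10 proteins that store fatty acids and cholesterol in lipid droplets or release them. They are Plin2, Plin3, Soat1, Nceh1, Lipa, Dgat1, Dgat2, Pnpla2, Fabp5 and Fabp3, chosen by symbol with earlier results of these data known. All 10 are among the 51810 genes of the count table. They were measured in microglia of wild-type mice in 4 groups of 2 libraries: white matter, here the corpus callosum, at 21 months (WM_21MO), grey matter at 21 months (GM_21MO), white matter at 4 months (WM_4MO) and grey matter at 4 months (GM_4MO). Myelin had been removed on a Percoll gradient and cells drawn with magnetic beads against CD11b, which binds other myeloid cells too. The region label reads corpus callosum for the grey matter libraries too, so they were told apart by their titles and descriptions. The sources used here state neither the strain and sex nor how many animals stood behind a library. The p-values thus measure the spread between these libraries, which may be technical.

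A lipid droplet is a store of triglycerides and cholesterol esters inside a single layer of phospholipid and coat proteins, the perilipins. Phagocytes take in cholesterol with lipoproteins, dead cells and myelin, and the lysosomal acid lipase frees it from its esters. At the endoplasmic reticulum, cholesterol is esterified again for storage, and neutral hydrolases release it for export. Fatty acids follow a parallel route, in which acyltransferases build triglycerides and lipases break them down, and small binding proteins carry the fatty acids through the cytosol.

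Library totals ran from 3273258 to 6315782 counts. A single pair of clone-named genes took 38.8% of the total in the first WM_4MO library and 20.7% in the first GM_4MO library. In the others the share of this pair was 6.78% to 14.2%. Levels are given as CPM, the gene's counts relative to the library total after TMM scaling, which adjusts for differences in the make-up of libraries. They are not corrected for gene length, so they are compared between libraries and not between genes. All 10 microglia markers were detected in every library, and their sum was 11540 to 17600 CPM in 7 of the 8. The first WM_4MO library stood apart. Its microglia markers summed to 2926 CPM and its 10 oligodendrocyte markers to 59520 CPM, against 193.3 to 748.1 CPM in the other 7. Results that rest on the first WM_4MO library are given with and without it. The first GM_4MO library had the highest sum of 6 red blood cell markers, at 26040 CPM, against 184.5 to 6934 CPM in the others. The part of these markers in the levels of that library was not tested. In bulk libraries, fewer cells of a type and less RNA per cell cannot be told apart.

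**Figure D1:**
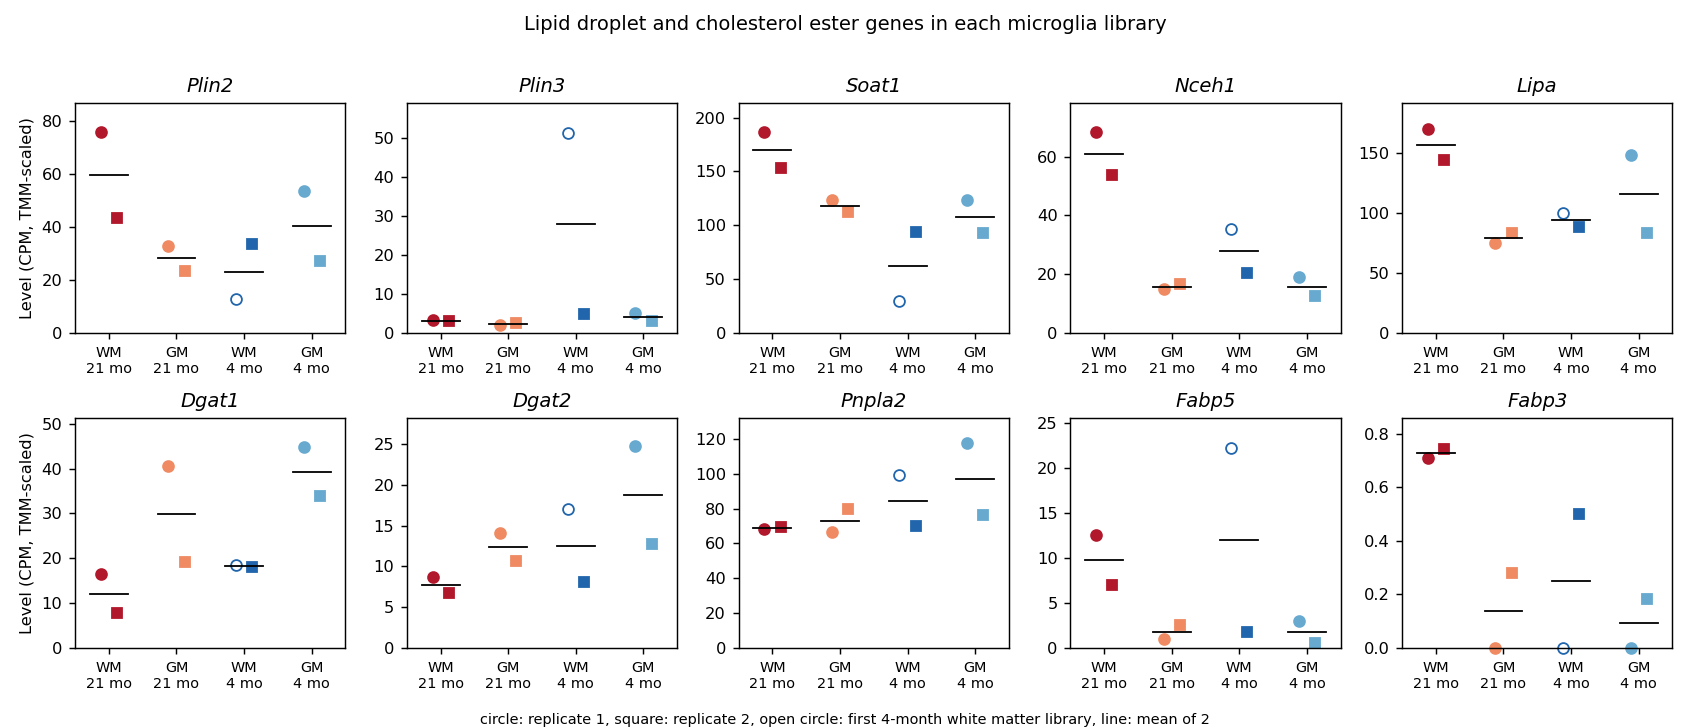
Level of each gene (CPM, linear axis from 0) in each of the 8 libraries, by group, with circles for replicate 1, squares for replicate 2, an open circle for the first WM_4MO library and a line at the mean of 2. Nceh1, Lipa, Soat1 and Plin2 were higher in both WM_21MO libraries than in both GM_21MO libraries, and the first WM_4MO library was far above all others in Plin3.

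White and grey matter were compared at 21 months first. The cholesterol ester hydrolases Nceh1 and Lipa, the cholesterol acyltransferase Soat1, the coat genes Plin2 and Plin3 and the carrier Fabp5 had both WM_21MO libraries above both GM_21MO libraries. The triglyceride-forming enzymes Dgat1 and Dgat2 had both below, and the triglyceride lipase Pnpla2 overlapped. Fabp3 was too low to be tested, so these are 6 of the 9 tested members higher and 2 lower. Of all genes tested, 20.9% and 19.5% had groups that did not overlap in those directions. Plin3 was separated on few counts, 14 and 12 in WM_21MO and 11 and 9 in GM_21MO. The members were chosen with earlier results of these data known, so setting them against these shares is not a test. The median log2 fold change of the 9 tested members was 0.53, and 0.017 over all 16237 genes tested.

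With all 8 libraries in edgeR's quasi-likelihood fit, none of the 9 members passed a Benjamini-Hochberg adjusted p of 0.05, and 0% of all genes did. At an unadjusted p under 0.05 there were 3 members, Nceh1, Lipa and Dgat1. Without the first WM_4MO library 0 members and 0.109% of all genes were called, and without the second 0 members and 0.0896%. DESeq2 called 1 member, Nceh1, and 0.333% of all genes, and limma with voom quality weights called Nceh1 and 0.696%. The fit of the 4 libraries of 21 months alone called 2 members, Nceh1 and Lipa, both higher in WM_21MO, where 0.985% of the 14717 genes tested were called higher and 0.591% lower.

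Nceh1 encodes neutral cholesterol ester hydrolase 1, an enzyme of the endoplasmic reticulum that frees cholesterol from stored esters in macrophages. Nceh1 stood at 68.4 and 53.6 CPM in WM_21MO, 14.9 and 16.7 CPM in GM_21MO, 35.3 and 20.6 CPM in WM_4MO, and 19.0 and 12.4 CPM in GM_4MO. Both WM_21MO libraries lay above all 6 others, and both WM_4MO libraries above all 4 grey matter ones. The WM_21MO mean of 61.0 ± 10.4 CPM (SD, n = 2) was thus followed by 27.9 ± 10.4 CPM in WM_4MO, while 15.8 ± 1.34 CPM in GM_21MO and 15.7 ± 4.65 CPM in GM_4MO overlapped. At 21 months the log2 fold change was 1.95 ± 0.42 (SE; edgeR adjusted p = 1) with all 8 libraries and 1.94 ± 0.229 (adjusted p = 0.00257) with the 21-month libraries alone, so the sizes were nearly equal and the spread differed. The adjusted p was 0.0337 in DESeq2 and 0.00705 with voom weights, 0.0835 in edgeR without the first WM_4MO library, and lay between 0.00257 and 1 over 14 alternatives. Leaving out 1 library of the 21-month fit sets a single library against 2, with 1 residual degree of freedom and the lone library assumed to vary like the pair. Nceh1 was at 1.74 to 2.11 in these 4 fits and was called in each, where 2.88% and 2.59% of all genes were called without the first and the second WM_21MO library, and 0.539% and 0.886% without the first and the second GM_21MO library.

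Lipa encodes lysosomal acid lipase, which cleaves cholesterol esters and triglycerides that reach the lysosome. Lipa stood at 169.3 and 144 CPM in WM_21MO, 74.9 and 83.2 CPM in GM_21MO, 99.9 and 88.6 CPM in WM_4MO, and 148 and 83.6 CPM in GM_4MO. Both WM_21MO libraries were above both GM_21MO and both WM_4MO libraries, while 1 GM_4MO library reached into their range. The group means, from the highest, were 157 ± 18.1 CPM in WM_21MO, 115.9 ± 45.7 CPM in GM_4MO, 94.2 ± 8.05 CPM in WM_4MO and 79.0 ± 5.87 CPM in GM_21MO (SD, n = 2 each); of neighbours in this order, WM_4MO and GM_21MO alone did not overlap. At 21 months the log2 fold change was 0.99 ± 0.373 (edgeR adjusted p = 1) with all 8 libraries and 0.98 ± 0.17 (adjusted p = 0.0183) with the 21-month libraries alone. The adjusted p ranged from 0.0183 to 1 over 14 alternatives. Within the 21-month fit, Lipa was not called without the first GM_21MO library (0.90, adjusted p = 0.3) or the second (1.05, adjusted p = 0.117). Without a WM_21MO library, where the spread came from the GM_21MO pair alone and the calls over all genes were the more frequent ones given above, it was at 0.84 (adjusted p = 0.0266) and 1.09 (adjusted p = 0.00599).

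The promoter stretches of these 2 genes are shown because they were the members called in the fit of the 21-month libraries alone. The sequences are from RefSeq (GRCm38.p6), run 5′ to 3′ on the gene's strand from 250 to 21 bases before the annotated start, and have capitals at CACGTG, the core of the E-box that lysosomal regulators of the TFEB family bind.
Nceh1 (chr3:27182754-27182983, plus strand): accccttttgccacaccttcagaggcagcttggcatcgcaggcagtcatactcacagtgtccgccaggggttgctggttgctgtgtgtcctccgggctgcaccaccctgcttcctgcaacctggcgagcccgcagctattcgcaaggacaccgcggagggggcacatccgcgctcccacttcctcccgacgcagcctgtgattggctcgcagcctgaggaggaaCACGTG
Lipa (chr19:34527495-34527724, minus strand): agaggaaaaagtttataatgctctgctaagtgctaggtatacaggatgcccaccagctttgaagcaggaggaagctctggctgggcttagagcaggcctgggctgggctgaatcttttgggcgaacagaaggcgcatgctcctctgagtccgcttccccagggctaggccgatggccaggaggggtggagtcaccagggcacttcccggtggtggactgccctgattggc
The motif is its own reverse complement, so 1 search covers both strands. It was present once in the Nceh1 stretch, with its first base 26 bases before the start, and not in that of Lipa. Of 32851 promoters in the table, 5.35% held it in the same window. The longer form TCACGTGA, which contains it, was in neither and in 0.624% of all promoters. Of the 10 members, 7 had a promoter in the table (not Dgat1, Dgat2 and Fabp5), and Nceh1 was the 1 among these with a CACGTG. In GENCODE M21, the transcript Nceh1-201 starts upstream of this motif. The match is a description of letters and not a bound site.

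Soat1 encodes sterol O-acyltransferase 1, the enzyme of the endoplasmic reticulum that esterifies cholesterol. Soat1 stood at 186 and 153 CPM in WM_21MO, 123 and 112 CPM in GM_21MO, 30.2 and 93.8 CPM in WM_4MO, and 124 and 92.5 CPM in GM_4MO. The WM_21MO libraries were the highest of the 8, GM_21MO and GM_4MO overlapped, and the lowest value was that of the first WM_4MO library. Between regions at 21 months its log2 fold change was 0.53 ± 0.522 (edgeR adjusted p = 1) with all 8 libraries and 0.52 ± 0.172 (adjusted p = 0.239) with the 21-month libraries alone.

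Setting 1 member against another within a library removes the scaling between libraries. Nceh1 had 0.367 and 0.35 counts per Soat1 count in WM_21MO, 0.12 and 0.149 in GM_21MO, 1.17 and 0.219 in WM_4MO, and 0.154 and 0.134 in GM_4MO. All 4 white matter libraries had more Nceh1 per Soat1 than all 4 grey matter libraries. Dgat1 had 0.0888 and 0.0502 counts per Soat1 count in WM_21MO, 0.329 and 0.171 in GM_21MO, 0.614 and 0.193 in WM_4MO, and 0.362 and 0.366 in GM_4MO. The WM_21MO libraries were the lowest of the 8 in this ratio. Both ratios were chosen after the levels were seen and carry no test.

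**Figure D2:**
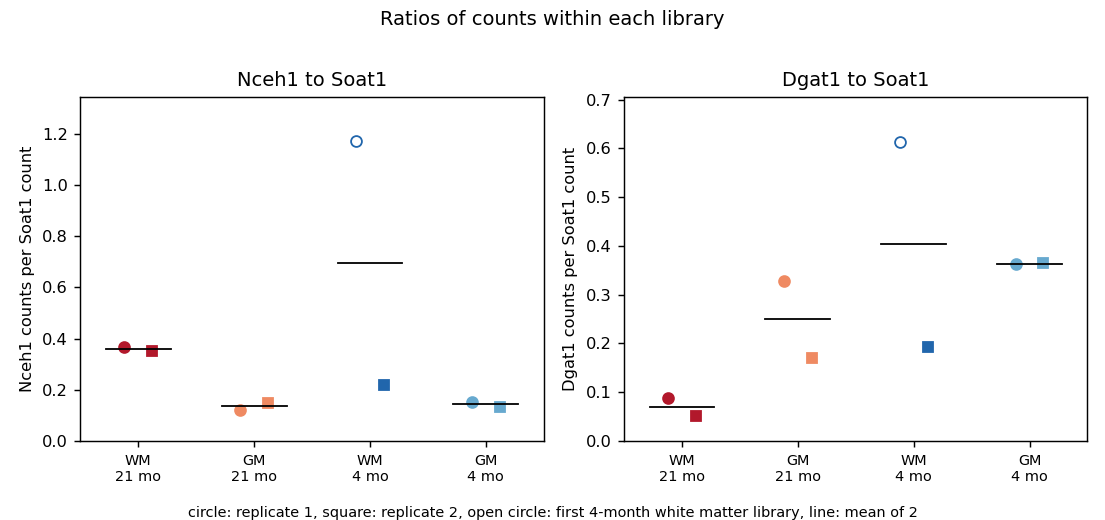
Counts of Nceh1 (left) and of Dgat1 (right) per count of Soat1 in each library, by group, with circles for replicate 1, squares for replicate 2, an open circle for the first WM_4MO library and a line at the mean of 2. WM_21MO lay at 0.35 and 0.367 for Nceh1, above both grey matter groups, and at 0.0502 and 0.0888 for Dgat1, below all others.

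Plin2 encodes perilipin 2, the main droplet coat protein of macrophages. Plin2 stood at 75.7 and 43.5 CPM in WM_21MO, 32.9 and 23.4 CPM in GM_21MO, 12.7 and 33.4 CPM in WM_4MO, and 53.5 and 27.1 CPM in GM_4MO. WM_21MO was above GM_21MO and WM_4MO in both libraries and overlapped GM_4MO, and every pair of neighbours in the order of group means overlapped. The log2 fold change at 21 months was 1.08 ± 0.577 (edgeR adjusted p = 1) with all 8 libraries and 1.06 ± 0.301 (adjusted p = 0.169) with the 21-month libraries alone. In that fit the value was 1.40 without the second WM_21MO library (adjusted p = 0.00892, the spread coming from the GM_21MO pair alone, with 2.59% of all genes called) and 0.59 without the first (adjusted p = 0.421), and the adjusted p ran from 0.00892 to 0.716 over the 4 libraries left out.

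Plin3 encodes perilipin 3, a coat protein that moves between the cytosol and young droplets. Plin3 stood at 3.31 and 2.98 CPM in WM_21MO, 2.18 and 2.51 CPM in GM_21MO, 51.2 and 4.77 CPM in WM_4MO, and 5.23 and 3.11 CPM in GM_4MO. The value of 51.2 CPM belongs to the first WM_4MO library, with 141 counts; the other 7 libraries had 9 to 30 counts. The difference at 21 months was 0.42 ± 1.03 on the log2 scale with all 8 libraries (edgeR adjusted p = 1), 0.42 ± 0.631 without the first WM_4MO library (adjusted p = 1) and 0.42 ± 0.593 with the 21-month libraries alone (adjusted p = 0.881).

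Dgat1 and Dgat2 encode the diacylglycerol acyltransferases that make the last step of triglyceride synthesis. Dgat1 stood at 16.6 and 7.70 CPM in WM_21MO, 40.6 and 19.3 CPM in GM_21MO, 18.5 and 18.1 CPM in WM_4MO, and 44.8 and 33.8 CPM in GM_4MO. White matter was below grey matter in all libraries of either age. At 21 months the log2 fold change was -1.30 ± 0.524 (edgeR adjusted p = 1), and it ran from -1.99 without the first WM_21MO library to -0.66 without the first GM_21MO library. Dgat2 stood at 8.75 and 6.70 CPM in WM_21MO, 14.1 and 10.6 CPM in GM_21MO, 17.1 and 8.03 CPM in WM_4MO, and 24.8 and 12.8 CPM in GM_4MO. WM_21MO was below GM_21MO in both libraries, and the 4-month groups overlapped. The log2 fold change at 21 months was -0.67 ± 0.552 (edgeR adjusted p = 1).

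Markers of other myeloid cells ran in the same direction as the Dgat genes. The 10 neutrophil markers summed to 81.7 and 304.2 CPM in WM_21MO and 1871 to 2168 CPM in GM_21MO, with at most 1 of the 10 at a count of 0 in a library. The 8 monocyte markers summed to 173.6 to 194.9 CPM in WM_21MO and 401.4 to 538.2 CPM in GM_21MO, with none at 0. Their part in the Dgat1 and Dgat2 differences was not tested. Of the 10 marker lists of other cell types, 4 had a lower sum in WM_21MO than in GM_21MO without overlap (neutrophils, monocytes, border-associated macrophages and astrocytes). Among the astrocyte markers Slc1a2 alone was lower without overlap, at 13.5 and 46.9 CPM in WM_21MO and 110.3 and 80.7 CPM in GM_21MO. Gfap was higher without overlap, and the other astrocyte markers overlapped. None of the 10 lists had a higher sum without overlap. The choroid plexus and ependymal markers overlapped, but the second WM_21MO library stood apart in them. They summed to 304.4 CPM in the first WM_21MO library, 9374 CPM in the second and 256.8 to 359.7 CPM in GM_21MO. Their part in the 21-month differences was not tested. At 4 months the neutrophil markers summed to 231.9 to 532.8 CPM in WM_4MO and 1995 to 4234 CPM in GM_4MO, again lower in white matter as Dgat1 was.

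Counted per 1000 counts of the 10 microglia markers, a scale chosen after the data were seen, Nceh1 averaged 5.24 in WM_21MO and 1.24 in GM_21MO, and Lipa averaged 13.4 in WM_21MO and 6.23 in GM_21MO. On this scale 7 of the 9 members had WM_21MO above GM_21MO without overlap, Pnpla2 among them at 5.90 in WM_21MO and 5.74 in GM_21MO. Dgat2 was lower, and Dgat1 overlapped, at a mean of 1.04 in WM_21MO and 2.45 in GM_21MO. Dividing by the marker sum moves all genes of a library at once, and the share of all genes without overlap was not computed. The counts of members on this scale, here and below, are thus not a result about these members. Soat1 had 15.9 and 13.3 in WM_21MO, 10.7 and 8.08 in GM_21MO, 10.3 and 7.72 in WM_4MO, and 7.03 and 6.38 in GM_4MO. The first WM_4MO library, the lowest in Soat1 by CPM, was thus inside the range of the others per microglia marker count. At 4 months 3 members (Plin3, Soat1 and Nceh1) were higher in WM_4MO without overlap and 0 lower on this scale, and Dgat1 overlapped, at 6.33 and 1.49 in WM_4MO and 2.55 and 2.33 in GM_4MO.

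Pnpla2 encodes adipose triglyceride lipase, which starts the breakdown of stored triglyceride. Pnpla2 stood at 68.1 and 69.3 CPM in WM_21MO, 66.6 and 79.5 CPM in GM_21MO, 99.2 and 70.0 CPM in WM_4MO, and 118 and 76.2 CPM in GM_4MO. All neighbours in the order of group means overlapped. Its log2 fold change at 21 months was -0.09 ± 0.354 (edgeR adjusted p = 1). G0s2, which encodes an inhibitor of this lipase and belongs to the wider list below, stood at 0.946 and 1.24 CPM in WM_21MO, and 18.6 and 17.6 CPM in GM_21MO. Its log2 fold change was -4.02 ± 0.473 (edgeR adjusted p = 0.72) with all 8 libraries, -4.02 ± 0.425 (adjusted p = 0.0213) without the first WM_4MO library and -4.03 ± 0.436 (adjusted p = 0.00168) with the 21-month libraries alone. Neutrophil and monocyte markers were lower in the same libraries, as given above, and their part in G0s2 was not tested.

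Fabp5 and Fabp3 encode fatty acid-binding proteins, carriers of fatty acids in the cytosol, known best from skin and from heart. Fabp5 had 53 and 28 counts in WM_21MO, 5 and 9 in GM_21MO, 61 and 7 in WM_4MO, and 17 and 3 in GM_4MO. In CPM these were 12.5 and 6.95 in WM_21MO, 0.99 and 2.51 in GM_21MO, 22.2 and 1.76 in WM_4MO, and 2.96 and 0.549 in GM_4MO. WM_21MO lay above both grey matter groups, and the highest value was that of the first WM_4MO library. At 21 months the log2 fold change was 2.49 ± 1.27 (edgeR adjusted p = 1) with all 8 libraries and 2.52 ± 0.585 (adjusted p = 0.0713) with the 21-month libraries alone. Leaving out the second WM_21MO library of that fit gave 2.88 (adjusted p = 0.0305, the spread coming from the GM_21MO pair alone, with 2.59% of all genes called), and the adjusted p was 0.0305 to 0.474 over the 4 libraries left out.

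Fabp3 had 3 counts in each WM_21MO library, 0 and 1 in GM_21MO, 0 and 2 in WM_4MO, and 0 and 1 in GM_4MO, and did not pass the filter on low counts. At 3 counts a library the floor was 0.523 to 1.09 CPM, so no fold is given. The table also lists a processed pseudogene, Fabp3-ps1, with 12 and 8 counts in WM_21MO, 0 and 0 in GM_21MO, 1 and 14 in WM_4MO, and 0 and 0 in GM_4MO. All its counts were in white matter libraries. Estimated counts of Fabp3 were not whole in WM_21MO (3.23 and 3.32), and reads of near-identical copies cannot be assigned with certainty. The pseudogene Fabp5l2 had 0 to 9 counts in each library.

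**Figure D3:**
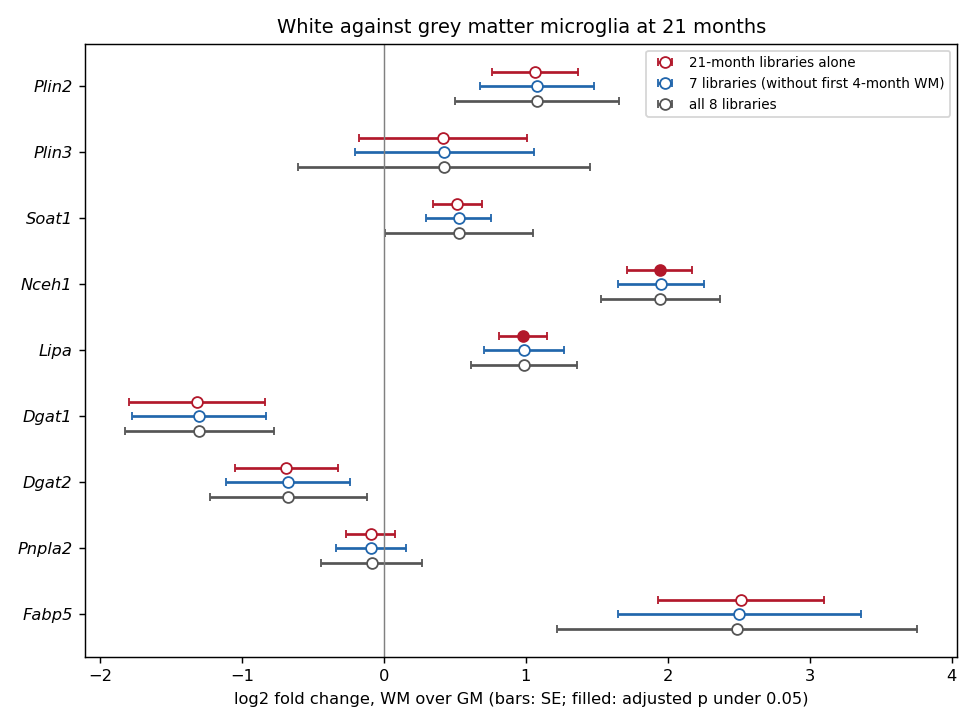
Log2 fold change of WM_21MO over GM_21MO for the 9 tested members, with bars for the SE, in edgeR fits of the 21-month libraries alone, of 7 libraries without the first WM_4MO library, and of all 8; filled points have an adjusted p under 0.05. Each member's estimate was nearly the same in the 3 fits, while its SE was widest with all 8 libraries. For Nceh1 the SE was 0.229 with the 21-month libraries alone and 0.42 with all 8. For Dgat1 it was 0.478 and 0.524, with 0.475 in the fit of 7.

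Aging was then compared within each region. In white matter, Plin2, Soat1, Nceh1 and Lipa had both WM_21MO libraries above both WM_4MO libraries (4 of 9 members, with 19.8% of all genes tested so placed), and Plin3, Dgat1 and Pnpla2 had both below (3 of 9, against 15.4%). edgeR's test on all 8 libraries called 0 of the 9 (0% of all genes); 3 had an unadjusted p under 0.05 (Plin3, Soat1 and Nceh1), and DESeq2 called 0 members (2.27% of all genes), as did limma with voom weights (0%). With all 8 libraries the log2 fold change was 1.36 ± 0.583 for Plin2, 1.45 ± 0.532 for Soat1, 1.13 ± 0.41 for Nceh1 and 0.73 ± 0.372 for Lipa (adjusted p = 0.615 to 0.625). Per 1000 microglia marker counts, 1 of the 9 members, Soat1, was higher in WM_21MO without overlap, and 2, Plin3 and Dgat1, were lower. Nceh1 had 5.83 and 4.64 in WM_21MO and 12 and 1.69 in WM_4MO on this scale, and Lipa had 14.4 and 12.4 in WM_21MO and 34.2 and 7.29 in WM_4MO. The higher WM_4MO values are those of the first library, so the means of both genes were lower in WM_21MO than in WM_4MO, the opposite of the CPM. Plin2 overlapped, at 6.45 and 3.76 in WM_21MO and 4.35 and 2.75 in WM_4MO.

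Several of these values turned on the first WM_4MO library. Without it Nceh1 stood at 1.56 ± 0.384, Soat1 at 0.85 ± 0.29, Plin2 at 0.83 ± 0.506 and Lipa at 0.81 ± 0.353 (edgeR adjusted p = 0.925 for Nceh1 and 1 for the others), and 0 members and 0.00571% of all genes were called. Fabp5 was at -0.28 ± 1.15 with all 8 libraries and at 2.45 ± 1.12 without that library, a change of direction. Plin3 was at -3.13 ± 1.02 with it and -0.61 ± 0.732 without. In the same library the oligodendrocyte markers were high, and their part in Plin3 and Fabp5 was not tested. When the second WM_4MO library was left out instead, so that the first stood alone for the group and was assumed to vary like the other libraries, edgeR called 3 members, Plin2 at 2.25, Plin3 at -3.99 and Soat1 at 2.52 (adjusted p = 0.024, 0.00108 and 0.00121), while 25.1% of all genes were called. Of the 10 marker lists of other cell types, 3 had a higher sum in WM_21MO than in WM_4MO without overlap (monocytes, endothelium and pericytes). For 1 the sum was lower (oligodendrocytes). The endothelial sum leaned on Flt1, at 61.3 and 97.8 CPM in WM_21MO and 0 and 11.8 CPM in WM_4MO. Abcb1a was also higher without overlap, and the other endothelial markers overlapped. The 8 monocyte markers, none at 0, summed to 173.6 to 194.9 CPM in WM_21MO and 49.42 to 125.9 CPM in WM_4MO. Most of the WM_21MO sums was Fn1, at 128 and 138.8 CPM, against 7.27 and 45.4 CPM in WM_4MO. Vcan was also higher in WM_21MO without overlap. F10 was lower, at 0.946 and 1.74 CPM in WM_21MO and 13.45 and 2.01 CPM in WM_4MO, and the other monocyte markers overlapped. The part of these lists in the differences with age was not tested.

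In grey matter 0 of the 9 members had both GM_21MO libraries above both GM_4MO libraries (17.2% of all genes tested), and Plin3 and Lipa had both below (2 of 9, against 17.3%). For Lipa the nearest GM_21MO and GM_4MO values were 83.2 and 83.6 CPM. No member was called or had an unadjusted p under 0.05 in edgeR's test on all 8 libraries (0% of all genes called), and DESeq2 and limma with voom weights called 0 members and 0% of all genes. The microglia markers summed to 11540 to 13920 CPM in GM_21MO and 14490 to 17600 CPM in GM_4MO, and the 8 border-associated macrophage markers, none at 0, to 129.2 to 162 CPM in GM_21MO and 197.6 to 347.8 CPM in GM_4MO. Endothelial, pericyte and choroid plexus markers were higher in GM_21MO without overlap. The part of these lists in the Lipa difference was not tested. Per 1000 microglia marker counts Lipa overlapped, Plin3 was lower in GM_21MO, and Soat1 and Nceh1 were higher (2 of 9), Nceh1 at a mean of 1.24 in GM_21MO and 0.969 in GM_4MO. The log2 fold change was 0.0059 ± 0.411 for Nceh1, 0.13 ± 0.521 for Soat1, -0.52 ± 0.573 for Plin2 and -0.55 ± 0.371 for Lipa (edgeR adjusted p = 1 for each).

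**Figure D4:**
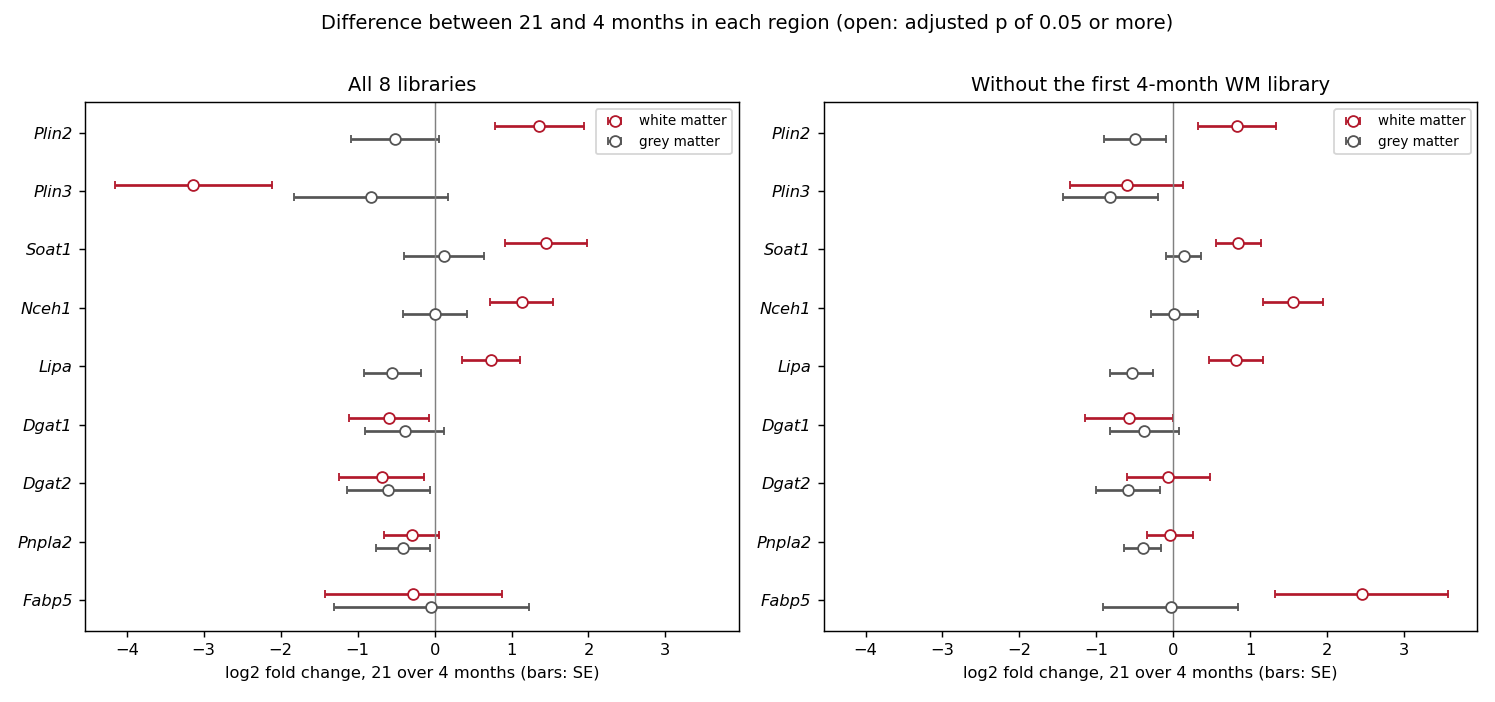
Log2 fold change of 21 over 4 months for the 9 tested members in white and in grey matter, with bars for the SE, in edgeR fits of all 8 libraries (left) and without the first WM_4MO library (right); no member passed an adjusted p of 0.05. Plin2, Soat1, Nceh1 and Lipa lay above 0 in white matter in both fits, and Fabp5 at -0.28 and 2.45.

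The difference between the aging changes of white and grey matter was tested itself. It was 1.88 ± 0.816 on the log2 scale for Plin2, 1.33 ± 0.74 for Soat1, 1.13 ± 0.579 for Nceh1 and 1.29 ± 0.525 for Lipa with all 8 libraries (edgeR adjusted p = 1 for each). Lipa had an unadjusted edgeR p of 0.0423, the only member under 0.05. edgeR called 0 members (0% of all genes), DESeq2 called 0 (0.123%) and limma with voom weights called 0 (0%). Without the first WM_4MO library the values were 1.33 ± 0.646 for Plin2, 0.71 ± 0.364 for Soat1, 1.54 ± 0.481 for Nceh1 and 1.35 ± 0.45 for Lipa, again with adjusted p = 1 for each. An aging change particular to white matter was therefore not shown for any member. With the first WM_4MO library alone for its group and the spread taken from the others, Plin2, Plin3 and Soat1 were called, at 2.77, -3.15 and 2.40 (edgeR adjusted p = 0.0356, 0.0204 and 0.0062), while 13.6% of all genes were called. The comparisons share libraries (WM_21MO enters the region, age and difference tests), so their values are not independent of each other.

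White against grey matter at 4 months completed the design. Nceh1 was higher in both WM_4MO libraries (1 of 9 members, with 13.4% of all genes tested so placed) and Dgat1 lower (1 of 9, against 15.5%). The microglia markers summed to 2926 to 12150 CPM in WM_4MO and 14490 to 17600 CPM in GM_4MO. Of the 10 lists of other cell types, 2 were higher in WM_4MO without overlap (oligodendrocytes and choroid plexus) and 5 lower (neutrophils, monocytes, border-associated macrophages, endothelium and astrocytes), and their part in Nceh1 and Dgat1 was not tested. The log2 fold change was 0.82 ± 0.411 for Nceh1 and -1.10 ± 0.519 for Dgat1 with all 8 libraries (edgeR adjusted p = 0.608 and 0.594), and 0.41 ± 0.363 and -1.10 ± 0.591 without the first WM_4MO library (adjusted p = 0.92 for both). edgeR called 0 members with all 8 libraries (0% of all genes), 1 had an unadjusted p under 0.05 (Plin3, at 2.73 ± 0.99), and DESeq2 called 0 members (3.17% of all genes), as did limma with voom weights (0%). Without the first WM_4MO library Plin3 was at 0.21 ± 0.725 and Fabp5 at 0.021 ± 1.1, against 2.73 ± 1.25 for Fabp5 with all 8. Without the second, with the first alone for its group, edgeR called Plin3 at 3.58, Soat1 at -1.87 and Fabp5 at 3.60 (adjusted p = 0.00149, 0.00396 and 0.0186), while 23.6% of all genes were called.

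The wider set of droplet and cholesterol ester genes, 51 in the table, had 33 tested. When the 21-month libraries were fitted alone, 0 of 33 were called higher (0.985% of all genes) and 1, G0s2, lower (0.591%); 15 lay above and 18 below 0, with a median log2 fold change of -0.06, and 0.0066 over all genes. Among 9 coat and growth genes, Hilpda, an inhibitor of triglyceride breakdown induced by hypoxia, differed most upward at 0.61 and Acsl3, an acyl-CoA synthetase of young droplets, most downward at -0.65, with all 8 libraries (edgeR adjusted p = 1 for both). Among 10 triglyceride synthesis genes these were the acyl-CoA synthetase Acsl4 at 0.73 and the glycerol-phosphate acyltransferase Gpam at -0.38 (adjusted p = 1 for both). Among 9 genes of the cholesterol ester cycle they were the sterol carrier Stard4 at 0.79 and the plasma acyltransferase Lcat at -1.40 (adjusted p = 1 for both). All 5 triglyceride breakdown genes tested lay below 0, and Abhd5, the activator of adipose triglyceride lipase, was nearest to it at -0.11. None of the 6 other fatty acid-binding protein genes of the list passed the filter on low counts.

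For aging in white matter, edgeR's fit of all 8 libraries called 0 of the 33 (0% of all genes), as did DESeq2 (2.27%). In edgeR's fit 12 lay above 0. The coat gene Plin4 differed most downward, at -3.28 ± 1.35 (edgeR adjusted p = 0.615), and at -0.62 ± 1.15 (adjusted p = 1) without the first WM_4MO library. In that reduced fit 18 of 35 tested genes lay above 0, with a median of 0.068, against -0.37 with all 8. In grey matter 9 of 33 lay above 0 and 0 were called, also by DESeq2 (0% of all genes in each). Plin4 differed most upward, at 1.84 ± 1.36 (edgeR adjusted p = 1). At 4 months edgeR called 0 of 33 between regions (0% of all genes). DESeq2 called 1 higher (Plin4, at 4.86, adjusted p = 0.00626) and 1 lower (G0s2, at -2.17, adjusted p = 0.00532). Of all 16237 genes tested, DESeq2 called 464 higher and 51 lower (3.17% in either direction). In edgeR Plin4 stood at 4.83 ± 1.47 (adjusted p = 0.479), and at 2.15 ± 1.17 without the first WM_4MO library.

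The genes most like Nceh1 and Lipa over the 8 libraries were sought by the root mean square difference of centred log2 CPM among 7768 other genes. Nearest to Nceh1 were Anxa5, a phospholipid-binding annexin, at 0.317, the pseudogene Cd9-ps at 0.321 and the tetraspanin gene Cd9 at 0.323, where the median gene lay at 0.949. Anxa5 stood at 94.8 and 75.0 CPM in WM_21MO, 38.4 and 37.1 CPM in GM_21MO, 58.5 and 30.1 CPM in WM_4MO, and 42.7 and 22.1 CPM in GM_4MO. Nearest to Lipa were Atox1, a copper chaperone gene, at 0.131 and the ribosomal protein pseudogenes Rpl36a-ps2 at 0.151 and Rps12-ps3 at 0.158, where the median gene lay at 0.602. Reads of the pseudogenes cannot be told apart from those of their parent genes with certainty. The libraries share their depth and make-up across all genes, and likeness over 8 libraries is a description of this data set.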

How the data were processed

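Estimated counts per gene were deposited by the authors for 8 Ion Proton libraries of polyadenylated RNA, one table with symbols as names. Per the submitters' processing notes the tools were Partek and DESeq2, with no role; the aligner, build, annotation and strand setting are not stated there or in the labels. The only coordinates given are those of the RefSeq promoters, in the build of that table. Between 17.9% and 19.7% of the values above 0 were not whole, and all were rounded. A deposited normalised table and a sample table were not used.

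The filterByExpr function of edgeR 4.0.16 (R 4.3.3) left 16237 genes, TMM set the scale, and a robust quasi-likelihood model of the 4 groups was used (4 residual degrees of freedom, common dispersion 0.257), with Benjamini-Hochberg adjustment over all genes and a call at 0.05. The fit of the 21-month libraries alone (14717 genes, dispersion 0.0503, 2 residual degrees of freedom) was an alternative, with DESeq2 1.42.0, limma 3.58.1 with voom weights, RLE scaling, no filter, a replicate block and each library left out. On simulated counts the 21-month fit made more false calls than its nominal share. Each SE was taken from the log2 fold change and its F statistic. An exact permutation test of 2 against 2 libraries cannot go below p = 0.333 (two-sided), so members were tested only through these models. Floors cover counting error only, at 3 counts a library.

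The members, lists, tests and named genes (the members, called or extreme genes of the lists, and the 3 genes nearest in pattern to each called member, with a mean count of at least 50 and without predicted and clone-named genes) were chosen with earlier results of these data known. The values of 1 gene of the wider lists are not reported here.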

Additional observations from a re-analysis of the deposited data

Results flagged for a closer look

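Lipa was marked because its libraries moved in opposite directions with age in the regions: both WM_21MO libraries lay above both WM_4MO libraries, and both GM_21MO libraries below both GM_4MO libraries. The test of that difference gave 1.29 ± 0.525 on the log2 scale (edgeR adjusted p = 1, unadjusted p = 0.0423), and 0.83 to 1.66 when 1 library was left out. It did not pass. The grey matter groups were separated by the gap between 83.2 and 83.6 CPM.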

How the results depend on the processing

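With 2 libraries a group, all calls depend on which libraries share the estimate of spread. The direction of Fabp5 with age in white matter changed without the first WM_4MO library, and also with the replicate block and with voom weights. Low counts limit Fabp3, Fabp5 and Plin3.

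With all 8 libraries edgeR called 0 genes in each comparison. At 21 months the count of genes was 54 in DESeq2, 147 without the filter, 113 with voom weights and 232 with the 21-month libraries alone, and that of members 1, 0, 1 and 2. Leaving 1 library out of the fit of all 8 gave 0 to 19 genes, and leaving WM_21MO replicates 1 and 2 and GM_21MO replicates 1 and 2 out of the 21-month fit gave 457, 415, 84 and 144 genes and 2, 4, 1 and 1 members. At 4 months DESeq2 called 515 genes and edgeR without the filter 1113, with 1 member (Plin3) in the second; leaving 1 library out gave 0 to 4222 genes and 0 to 3 members. With age in white matter these were 369 and 963 genes, with 1 member (Plin3) without the filter, and 0 to 4491 genes and 0 to 3 members. In grey matter 17 genes were called without the filter. For the difference between regions the counts were 20 in DESeq2 and 470 without the filter, and 0 to 2422 genes and 0 to 3 members on leaving 1 library out.

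Members without overlap between groups, with library totals alone, were 2 higher and 3 lower at 4 months and 1 higher with age in grey matter. Leaving 1 library out gave 6 to 7 higher and 2 to 3 lower at 21 months, and 1 to 4 and 1 to 6 at 4 months. With age these were 4 to 5 and 3 to 5 in white matter, and 0 to 3 and 2 to 9 in grey matter. The share of all genes was not computed for any of these counts. A single library against 2 is also more easily separated than 2 against 2, so the counts are not a result about the members.

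Directions changed for the following. With age, Fabp5 was at 0.17 with the replicate block and 0.77 with voom weights in white matter, and at 0.023 in DESeq2, 0.0049 with RLE scaling, 0.50 with the replicate block and 0.14 with voom weights in grey matter; its difference between regions was 0.63 with voom weights. Leaving 1 library out gave ranges across 0 at 21 months for Pnpla2 (-0.21 to 0.048), at 4 months for Lipa (-0.67 to 0.16) and Pnpla2 (-0.49 to 0.13), and with age in white matter for Fabp5 (-1.16 to 2.45). With age in grey matter they were -0.92 to 0.053 for Plin2, -0.068 to 0.34 for Soat1, -0.27 to 0.34 for Nceh1, -1.03 to 0.039 for Dgat1 and -0.82 to 1.59 for Fabp5. For the difference between regions they were -3.15 to 0.21 for Plin3 (above 0 without the first WM_4MO library), -0.87 to 0.46 for Dgat1, -0.62 to 0.52 for Dgat2, -0.22 to 0.40 for Pnpla2 and -1.84 to 2.48 for Fabp5. The cause was not tested.

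Whether same-numbered libraries are paired cannot be told from the counts. Their deviations from the group mean correlated at -0.141 to 0.415 across groups, the highest value being that of WM_4MO with GM_4MO. With 2 libraries a group, each group gives a single set of deviations, so these values cannot decide it. With the replicate block edgeR called 0 genes and 0 members in each of the 5 comparisons.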
